A study of Mus musculus with 12 samples.

Results

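ETS transcription factors share a winged helix-turn-helix DNA-binding domain, the ETS domain, that reads a GGAA core. Erg and Fli1 are known for their roles in endothelium, hematopoietic stem cells and megakaryocytes, Ets1 in endothelium and lymphocytes, and Etv2 in the earliest common precursors of blood and vessels. Other members of the family act more broadly or in epithelia. The expression of 10 ETS genes was examined here in cells described as sorted from mouse fetal liver (FL): Erg, Fli1, Ets1, Ets2, Etv2, Etv6, Elk3, Elf1, Elf3 and Gabpa. They were chosen by name from the 38127 genes counted in each library, and all 10 were found.

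The study sequenced RNA from sorted C57BL/6 FL cells to identify a Kit+ population that lacks the pan-hematopoietic marker CD45 and the erythroid marker Ter119. All 4 groups were sorted as Ter119-CD45- cells, with 3 libraries each. At embryonic day 14.5 (E14.5) the groups were P2 cells (Ter119-CD45-CD54-CD31-Kit+CD24+), CD54+CD31- cells (Ter119-CD45-CD54+CD31-) and CD31+ cells (Ter119-CD45-CD54+CD31+), which represent endothelium. The labels gate the former on CD54, whereas the study's text speaks of CD324+ cells (epithelium and hepatoblasts) beside P2 and CD31+ cells, and the labels do not mention CD324. The fourth group was CD54+CD31- cells at E18.5. The E14.5 populations came from independent litters according to the study. For the E18.5 libraries no source of the replicates was given, so their p-values measure the spread between these samples, which may be technical. CD31 is encoded by Pecam1, so an endothelial signal in the CD31+ group was fixed by the sort.

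Total counts ranged from 40714017 to 64368883 per library. Levels are counts scaled to library size (CPM) after TMM normalization over all 12 libraries, given as mean ± SD (n = 3), and a count of 0 allows up to between 0.0388 and 0.0944 CPM depending on the library (3 counts, counting error only). The summed level of 7 hepatoblast markers was between 68556 and 78852 CPM in the E14.5 CD54+CD31- libraries and at most 900 CPM in the CD31+ and P2 libraries. The 6 endothelial markers summed to between 8134 and 8534 CPM in CD31+ cells, and the 6 erythroid markers to between 1436 and 1730 CPM in P2 cells. Among the libraries, P2 replicate 2 held more endothelial RNA than the other P2 libraries, and the E18.5 libraries held lung markers, with values given beside the results they touch. In such bulk samples fewer cells of a type and less RNA per cell cannot be told apart.

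The members lie on 7 chromosomes of GRCm38, and 4 of them form 2 neighbouring pairs. Fli1 (chr9:32422204-32542861, minus strand) and Ets1 (chr9:32636221-32757820, plus strand) are 93.4 kb apart with 0 protein-coding genes between them. Erg (chr16:95359169-95586593, minus strand) and Ets2 (chr16:95702075-95721051, plus strand) are 115 kb apart, also with 0 protein-coding genes between. Gabpa (chr16:84834925-84863779) is on the same chromosome as the latter pair, with 107 protein-coding genes between it and Erg. The remaining members are single: Etv6 on chromosome 6 (134035700-134270158), Etv2 on chromosome 7 (30633616-30635852), Elk3 on chromosome 10 (93247414-93311135), Elf1 on chromosome 14 (79481194-79582494) and Elf3 on chromosome 1 (135253575-135258568).

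Because ETS genes can bear the motif that their own proteins read, the 250 bases upstream of RefSeq start sites were searched for GGAA on either strand (GGAA or TTCC). A window was at hand for 8 of the 10 members, all but Fli1 and Ets1, with 11 start sites in all. The 5 windows printed here are those of Erg and Elk3, which were high in CD31+ cells, of Etv2, which was hardly counted, and of Gabpa, whose level moved least. Each is written from 5′ to 3′ on the gene's own strand, with GGAA and TTCC in capitals (GRCm38.p6).
Erg, first start site (chr16:95586594-95586843): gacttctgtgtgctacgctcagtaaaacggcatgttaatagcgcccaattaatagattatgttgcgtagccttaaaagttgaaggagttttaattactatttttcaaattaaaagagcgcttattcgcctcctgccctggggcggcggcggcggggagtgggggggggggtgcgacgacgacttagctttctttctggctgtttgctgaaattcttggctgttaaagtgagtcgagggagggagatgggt
Erg, second start site (chr16:95530366-95530615): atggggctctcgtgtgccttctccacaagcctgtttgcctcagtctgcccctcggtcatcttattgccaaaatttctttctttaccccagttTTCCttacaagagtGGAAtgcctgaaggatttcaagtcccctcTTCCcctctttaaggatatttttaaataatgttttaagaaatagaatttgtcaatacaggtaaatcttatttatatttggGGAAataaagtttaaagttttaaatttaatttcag
Elk3 (chr10:93311160-93311409): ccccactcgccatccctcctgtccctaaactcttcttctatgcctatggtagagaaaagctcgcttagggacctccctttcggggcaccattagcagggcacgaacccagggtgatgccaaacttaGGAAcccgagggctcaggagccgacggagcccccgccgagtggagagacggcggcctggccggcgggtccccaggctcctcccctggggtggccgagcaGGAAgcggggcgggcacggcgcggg
Etv2 (chr7:30635853-30636102): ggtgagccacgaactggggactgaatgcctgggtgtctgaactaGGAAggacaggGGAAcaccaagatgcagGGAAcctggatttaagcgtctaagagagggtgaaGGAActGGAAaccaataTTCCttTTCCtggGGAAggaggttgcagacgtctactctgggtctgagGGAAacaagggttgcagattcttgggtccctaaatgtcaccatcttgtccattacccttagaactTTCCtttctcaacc
Gabpa (chr16:84834874-84835123): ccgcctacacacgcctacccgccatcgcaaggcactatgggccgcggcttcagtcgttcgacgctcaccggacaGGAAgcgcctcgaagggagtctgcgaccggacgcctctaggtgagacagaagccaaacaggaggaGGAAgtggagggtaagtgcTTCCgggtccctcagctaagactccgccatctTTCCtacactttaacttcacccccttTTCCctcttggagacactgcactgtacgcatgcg

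Etv2 held 10 GGAA cores in its window, a number reached by 0.192% of the 32851 mouse windows of the same length. Gabpa held 5, which 18.0% of windows reach, while Erg held 0, 4 and 2 at its 3 start sites and Elk3 held 2. The core is common: 93.4% of all windows have at least 1, with a median of 3. The longer motif CCGGAAGT, which contains GGAA and occurs in 2.88% of windows, was in none of the 11 windows of members. The GATA motif GATAA, searched as GATAA or TTATC, occurs in 22.6% of windows and in 1 of the members' 11, the third start site of Erg. These matches describe letters in a window and not sites bound by a protein.

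Elf3 and Etv2 gave almost no counts. Elf3, an epithelial ETS gene, was listed at 0 counts in all 12 libraries. Its whole span (100%) overlaps another gene, Gm26642, which lies on the opposite strand, although only 7.31% of Elf3's exon bases are shared. Of 13886 protein-coding genes whose span is not shared, 15.7% were at 0 in all libraries, whereas 98.1% of the 1027 genes whose whole span is shared were at 0. Among the 469 genes with a whole span shared with the other strand and under 10% of exon bases shared, 98.7% were at 0. The zeros followed overlap of whole gene spans irrespective of strand, and the 0 of Elf3 carries no information on its expression. Gm26642 itself had 0 to 9 counts in the E14.5 libraries and 85, 34 and 33 in the E18.5 libraries. The other members share between 0 and 30.8% of their span, the highest share being that of Elk3, and reads in those stretches may be missing from their counts.

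**Figure D1:**
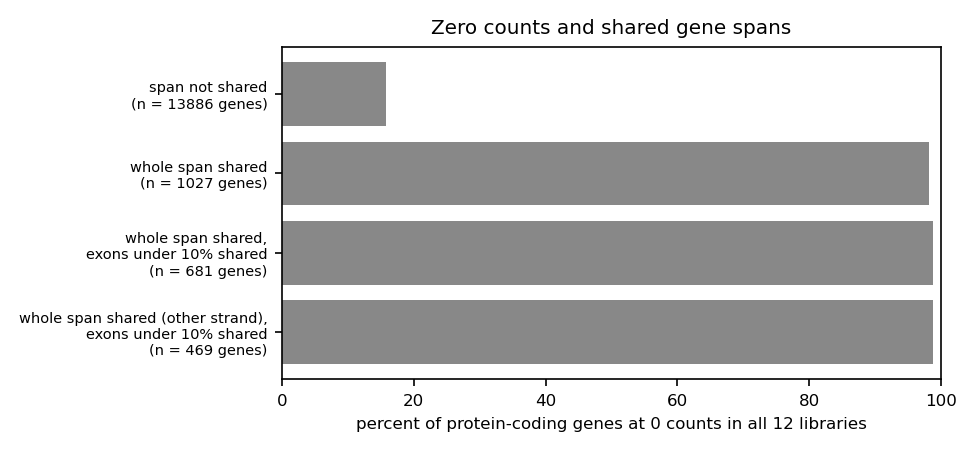
Percent of protein-coding genes with 0 counts in all 12 libraries (horizontal axis) by how much of the gene's span overlaps other genes in the annotation; n is the number of genes in each class. The 3 classes with a wholly shared span, to which Elf3 belongs, stand at 98.1% or above, against 15.7% for genes with no shared span.

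Etv2, in contrast, shares none of its span, and it had 5 counts in all. CD31+ replicate 1 had 3 of them and E18.5 replicate 1 had 2, and the other 10 libraries had 0. Its level was thus near or under what a count of 0 allows in every library, and neither Etv2 nor Elf3 entered a test. The remaining 8 members passed the filter on low counts in every comparison.

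Erg showed the steepest difference between groups. Its level was 242, 198 and 202 CPM in the 3 CD31+ libraries and 1.02, 1.54 and 1.09 CPM in CD54+CD31- cells at E14.5. In P2 cells it was 1.13, 8.37 and 3.16 CPM, and at E18.5 it was 7.94, 7.56 and 4.58 CPM. All CD31+ libraries thus lay far above the rest, and the P2 libraries spread over the whole interval between the E14.5 and the E18.5 CD54+CD31- cells. Erg was 176-fold higher in CD31+ than in CD54+CD31- cells (log2 fold change 7.46 ± 0.64 SE, adjusted p = 2.6e-06, edgeR's quasi-likelihood test). The test gives no SE, so here and below it is the absolute log2 fold change divided by the square root of the test's F statistic.

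Fli1, the closest relative of Erg, was at 393, 352 and 339 CPM in CD31+ cells. It was at 10.6, 13.5 and 13.5 CPM in E14.5 CD54+CD31- cells and at 5.97, 23.4 and 8.95 CPM in P2 cells. The E18.5 libraries had 9.74, 19.4 and 15.8 CPM. Outside CD31+ cells the 3 groups therefore overlapped, and none of the tested differences among them passed the threshold for Fli1. The CD31+ level was 28.6-fold that of CD54+CD31- cells (4.84 ± 0.45, adjusted p = 4.74e-06, edgeR).

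Ets1, the neighbour of Fli1, reached 730, 767 and 740 CPM in CD31+ cells, with an SD of only 19.5 CPM. Its levels were 7.02, 10.8 and 11.9 CPM in E14.5 CD54+CD31- cells, 4.75, 30.01 and 9.17 CPM in P2 cells, and 43.2, 53.8 and 48.2 CPM at E18.5. The order was CD31+, then E18.5, with the remaining 2 groups overlapping at the bottom. The difference between CD31+ and CD54+CD31- cells was 74.9-fold (6.23 ± 0.63, adjusted p = 9.49e-06, edgeR).

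Elk3, a ternary complex factor that binds DNA with SRF and is known mainly as a repressor, had the same fitted fold of 74.9 (6.23 ± 0.34, adjusted p = 9.09e-08, edgeR). Its levels were 159, 147 and 134 CPM in CD31+ cells and 2.01, 1.57 and 2.22 CPM in CD54+CD31- cells at E14.5. P2 cells had 3.24, 7.56 and 3.37 CPM and E18.5 cells 6.56, 7.04 and 6.01 CPM. Here every P2 library lay above every E14.5 CD54+CD31- library, as for 37.6% of all genes tested.

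Ets2, the neighbour of Erg and known as a target of ERK signaling, differed less between populations and was ordered differently. It had 379, 438 and 411 CPM in CD31+ cells, 150.2, 120.3 and 119 CPM at E18.5, and 78.7, 80.0 and 95.4 CPM in E14.5 CD54+CD31- cells. P2 cells were lowest with 18.4, 33.8 and 23.6 CPM. No 2 of these 4 groups overlapped. In each of the 4 comparisons tested, between 69.5% and 77.8% of all genes tested did not overlap either.

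Etv6, a repressor needed for adult hematopoiesis, had 239, 189.8 and 209.96 CPM in CD31+ cells. P2 cells (68.2, 89.9 and 79.1 CPM) and E18.5 cells (75.9, 81.3 and 80.7 CPM) overlapped at an intermediate level. The E14.5 CD54+CD31- libraries were lowest with 35.0, 28.3 and 37.6 CPM. Etv6 was 6.3-fold higher in CD31+ than in CD54+CD31- cells (2.66 ± 0.15, adjusted p = 1.07e-07, edgeR).

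Elf1, which acts in blood and endothelial cells, varied within a narrow range. It had 101, 113 and 125.04 CPM in CD31+ cells, 109.9, 121 and 117 CPM in P2 cells, and 163, 129 and 125.1 CPM at E18.5. The P2 libraries lay within the range of the CD31+ libraries, and the E18.5 libraries began where that range ended. The E14.5 CD54+CD31- libraries were below all of them with 52.7, 56.8 and 65.2 CPM.

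Gabpa, the DNA-binding subunit of the GABP complex and a broadly used activator of mitochondrial genes, varied least, with the highest group mean (101 CPM) and the lowest (58.3 CPM) closer than for any other tested member. Its levels were 100.1, 89.2 and 113 CPM in P2 cells, 76.6, 82.6 and 89.3 CPM in E14.5 CD54+CD31- cells, 58.1, 75.7 and 75.0 CPM in CD31+ cells and 57.0, 60.8 and 57.2 CPM at E18.5. P2 and E14.5 CD54+CD31- cells overlapped by a single library, and CD31+ and E18.5 cells also overlapped.

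**Figure D2:**
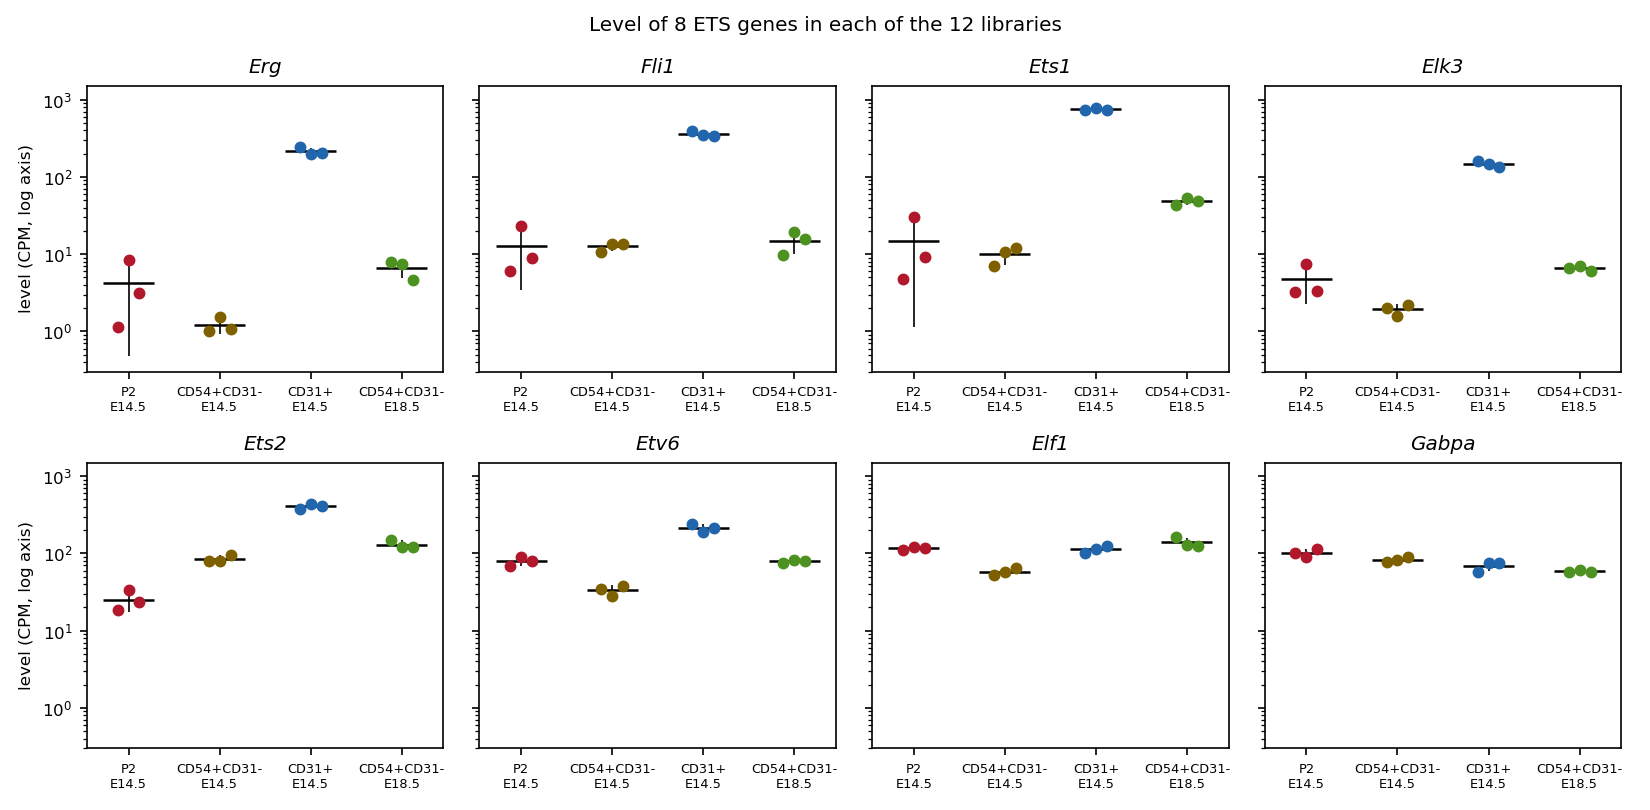
Level (CPM, log axis) of the 8 tested members in each library of P2, E14.5 CD54+CD31-, E14.5 CD31+ and E18.5 CD54+CD31- cells; points are libraries, horizontal bars are means and vertical bars the SD (n = 3). Erg, Fli1, Ets1 and Elk3 are far higher in CD31+ cells than anywhere else, with mean levels of 214, 362, 746 and 147 CPM, while Gabpa means stay between 58.3 and 101 CPM.

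Levels of different genes can be compared only per length, and the order of members then depended on the length used. Per kilobase of exon, the CD31+ mean was highest for Fli1 (104 ± 8.07 CPM per kb), followed by Ets1 (88.0 ± 2.30) and Ets2 (70.8 ± 5.06). Per kilobase of unshared gene span it was highest for Ets2 (21.6 ± 1.54 CPM per kb), a short gene, and Fli1 had 3.46 ± 0.269. In P2 cells Gabpa (17.7 ± 2.11 CPM per kb of exon) and Elf1 (17.2 ± 0.824) were highest and indistinguishable in that measure, and Etv6 followed with 13.2 ± 1.82. Since the zeros follow gene spans, intronic reads may be part of the counts, and no order between genes was taken from either measure.

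The comparison of CD31+ with CD54+CD31- cells at E14.5 sets endothelium against the hepatoblast-containing sort. Of the 8 members tested, 7 were higher in CD31+ cells and 0 lower, while 65.6% of all 15461 genes tested were called in either direction, 31.7% higher and 34.0% lower. The members' median log2 fold change was 3.75, against -0.03 for all genes tested. The count of 0 lower members was also 0 at an unadjusted p below 0.05 in edgeR and 0 with DESeq2. Ets2 was 4.81-fold higher (2.27 ± 0.19, adjusted p = 2.63e-06, edgeR) and Elf1 1.93-fold (0.95 ± 0.11, adjusted p = 2.21e-05, edgeR).

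Gabpa alone was not called (-0.26 ± 0.13, adjusted p = 0.0955, edgeR), though its 3 CD31+ libraries all lay below the 3 CD54+CD31- libraries, as for 35.7% of all genes tested. It was called lower in CD31+ cells when CD31+ replicate 2 (-0.40, adjusted p = 0.0331), CD31+ replicate 3 (-0.39, adjusted p = 0.0366) or P2 replicate 1 (-0.34, adjusted p = 0.0461, all edgeR) was left out.

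Genes of vascular cells that are known to be under ETS control accompanied the members. Of 20 listed, 19 were tested, and 18 were higher in CD31+ cells with 0 lower (median log2 fold change 7.69), beside 31.7% and 34.0% of all genes tested. The largest changes were in the transcription factor Sox18 (8.57), the surface protein Clec14a (8.32), the VEGF receptor Kdr (8.21) and the matrix protein Mmrn2 (8.13). The exception was Hhex, a homeobox factor that acts in endothelium and liver alike, with 83.1 ± 5.13 CPM in CD31+ and 85.8 ± 2.98 CPM in CD54+CD31- cells. Cdh5 and Kdr of this list also served as endothelial markers.

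Megakaryocyte genes with known ETS control rose as well, all 7 of 7 in CD31+ cells (median 3.03), beside 31.7% of all genes tested. Itga2b (3.72), which encodes CD41, and Treml1 (3.16) were among the largest, beside Gp1ba (3.03), part of the von Willebrand factor receptor. The 5 megakaryocyte markers, 4 of which are on this list, summed to between 268 and 481 CPM in CD31+ cells and to between 36.6 and 45.7 CPM in CD54+CD31- cells. Megakaryocytes, which carry CD31, express Erg and Fli1 too, and their part in the CD31+ levels of these genes was not tested.

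By the measure fixed for this purpose, the root mean square difference in centred log2(CPM + 1) over the 12 libraries, the genes most like Erg among 16642 were Pecam1 (0.230), Arhgef15 (0.266), Cyyr1 (0.266), Dll4 (0.270) and Bmp2 (0.273). Pecam1 encodes CD31, the antigen that set the CD31+ group apart, so likeness among endothelial genes was partly fixed by the sort. Among the members, Elk3 ranked 47 in likeness to Erg, Ets1 58 and Fli1 109, and Gabpa 9598. The 5 genes most like Etv6 were Alpk1, Camta1, Dgke, Zdhhc18 and 4931428F04Rik (between 0.186 and 0.227), and the nearest member to it, Elf1, ranked 1201.

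The comparison of P2 with CD31+ cells asks how the Kit+CD24+ population stands to endothelium. Against CD31+ cells, 6 of the 8 tested members were lower in P2 cells and 1, Gabpa, was higher, with 73.7% of all tested genes called, 34.3% higher and 39.4% lower. This comparison shares its CD31+ libraries with the preceding one. The median log2 fold change was -4.43 over the members and -0.13 over all genes tested.

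The fall was steepest for Ets1 (51.3-fold lower, log2 fold change -5.68 ± 0.61, adjusted p = 1.17e-05, edgeR) and Erg (50.9-fold lower, -5.67 ± 0.56, adjusted p = 6.5e-06). Elk3 (31.3-fold, -4.97 ± 0.31), Fli1 (28.5-fold, -4.83 ± 0.44) and Ets2 (16.3-fold, -4.03 ± 0.21) followed. Without P2 replicate 2, the P2 library with most endothelial RNA, the falls were larger for Ets1 (-6.74), Erg (-6.62) and Fli1 (-5.60). Etv6 was only 2.72-fold lower (-1.44 ± 0.14, adjusted p = 6.17e-06, edgeR). Elf1 did not differ past the threshold (0.02 ± 0.11, adjusted p = 0.845, edgeR), and Gabpa was 1.44-fold higher in P2 cells (0.52 ± 0.13, adjusted p = 0.00338, edgeR).

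These last 2 values depended on the scaling. With the authors' own library factors the median of all genes shifted by -0.37 in this comparison, Elf1 was lower in P2 cells (-0.34, adjusted p = 0.0162, edgeR), and Gabpa was not called (0.15, adjusted p = 0.235, edgeR). Of the genes called, 46.6% were higher in P2 cells with TMM and 33.9% with the authors' factors. The other 6 members were called lower with either scaling.

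**Figure D3:**
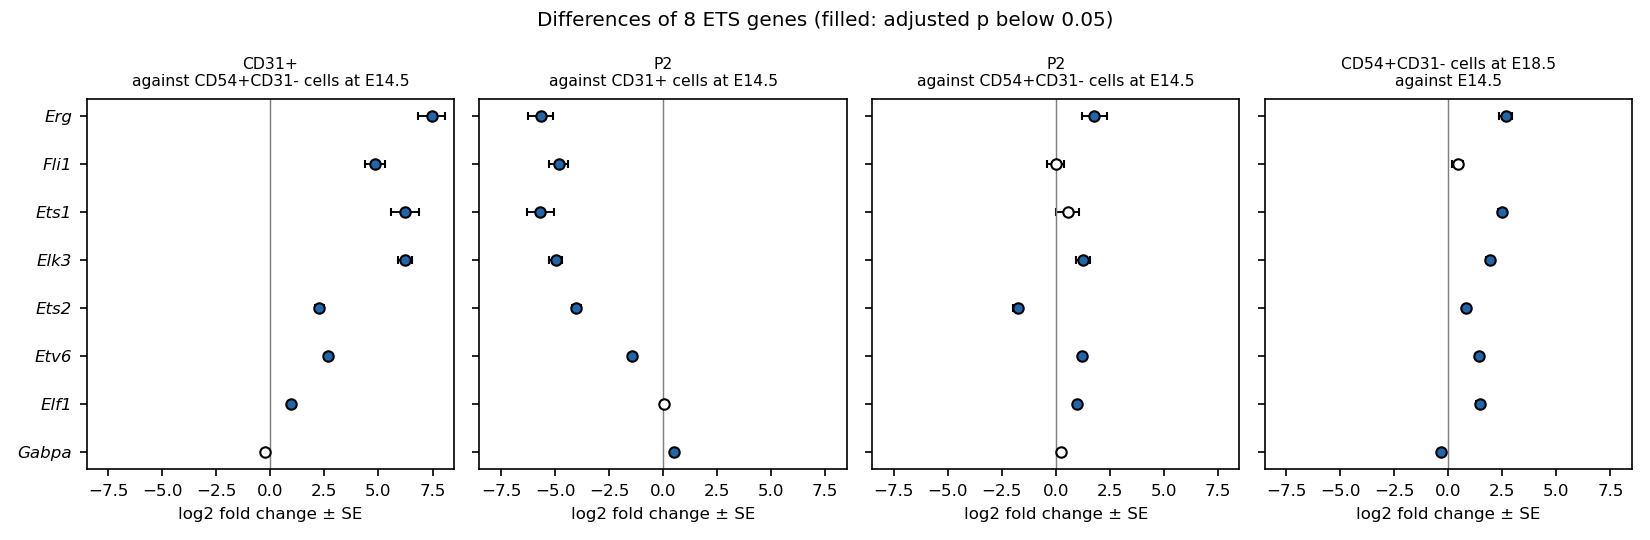
Log2 fold change (point) and its SE (bar) of the 8 tested members in the 4 comparisons, from edgeR's quasi-likelihood test; filled points have an adjusted p below 0.05 and the grey line marks no difference. In the 2 comparisons with CD31+ cells Erg, Fli1, Ets1 and Elk3 lie at least 4.83 from 0 on this log2 scale, whereas Gabpa stays within 0.52 of it in all 4 panels.

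Between P2 and CD54+CD31- cells at E14.5, 4 of the 8 tested members were higher in P2 cells, 1 was lower and 3 were not called. Of all genes tested, 70.0% were called, 33.8% higher and 36.1% lower, so the members' share of calls was close to the background. The median log2 fold change was 0.76 over the members and -0.01 over all genes tested.

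Etv6 (2.32-fold, 1.21 ± 0.14, adjusted p = 2.38e-05, edgeR) and Elf1 (1.96-fold, 0.97 ± 0.11, adjusted p = 1.46e-05) were higher in P2 cells. Their libraries did not overlap between the groups, which also held for 75.3% of all genes tested. Elk3 was 2.39-fold higher (1.26 ± 0.31, adjusted p = 0.00451, edgeR). Ets2 was the member that was lower, 3.39-fold (-1.76 ± 0.19, adjusted p = 1.32e-05, edgeR). The calls of Etv6, Elf1, Elk3 and Ets2 held with every library left out in turn and with the authors' factors.

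Erg was called higher in P2 cells (3.46-fold, 1.79 ± 0.58, adjusted p = 0.0189, edgeR), but the libraries overlapped. Without P2 replicate 2 its log2 fold change was 0.84 (adjusted p = 0.0551, edgeR). Without CD54+CD31- replicate 1 or 3 the call was lost as well, with a fold change that stayed close (1.70 and 1.71, adjusted p = 0.0579 and 0.0601, edgeR). Fli1 (0.01 ± 0.39, adjusted p = 0.987, edgeR) and Ets1 (0.55 ± 0.52, adjusted p = 0.369) were not called. With P2 replicate 2 left out, the sign of Fli1 turned, and P2 cells were lower (-0.76, adjusted p = 0.00249, edgeR), and Ets1 had a log2 fold change of -0.51. Gabpa was not called (0.27 ± 0.13, adjusted p = 0.0833, edgeR), although it was without CD31+ replicate 1 (0.27, adjusted p = 0.0372) or without P2 replicate 2 (0.35, adjusted p = 0.0327).

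The level of endothelial markers moved with these values across the P2 libraries. As a percent of the CD31+ mean, the 6 endothelial markers had a median of 0.606% in P2 replicate 1, 4.03% in replicate 2 and 1.02% in replicate 3, and none of the 6 was at 0. Erg stood at 0.526%, 3.91% and 1.48% and Ets1 at 0.638%, 4.02% and 1.23%, within or close to the range of the markers in each library. Elk3 (2.21%, 5.15% and 2.30%) and Fli1 (1.65%, 6.48% and 2.48%) stood above the marker range in all 3 libraries.

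The same was seen in raw counts. There were between 0.448 and 0.465 Ets1 counts per Cdh5 count in the CD31+ libraries and between 0.455 and 0.546 in the P2 libraries. For Erg the ratio was between 0.116 and 0.149 in CD31+ and between 0.120 and 0.188 in P2 cells. Fli1 had between 0.206 and 0.242 counts per Cdh5 count in CD31+ cells against between 0.355 and 0.634 in P2 cells, with no overlap, and Elk3 between 0.0839 and 0.0977 against between 0.114 and 0.344. The part of endothelial RNA in the P2 levels of Erg, Ets1, Fli1 and Elk3 was not tested. Etv6, Elf1 and Gabpa stood at 32.0% or more of the CD31+ mean in every P2 library, far above the markers.

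**Figure D4:**
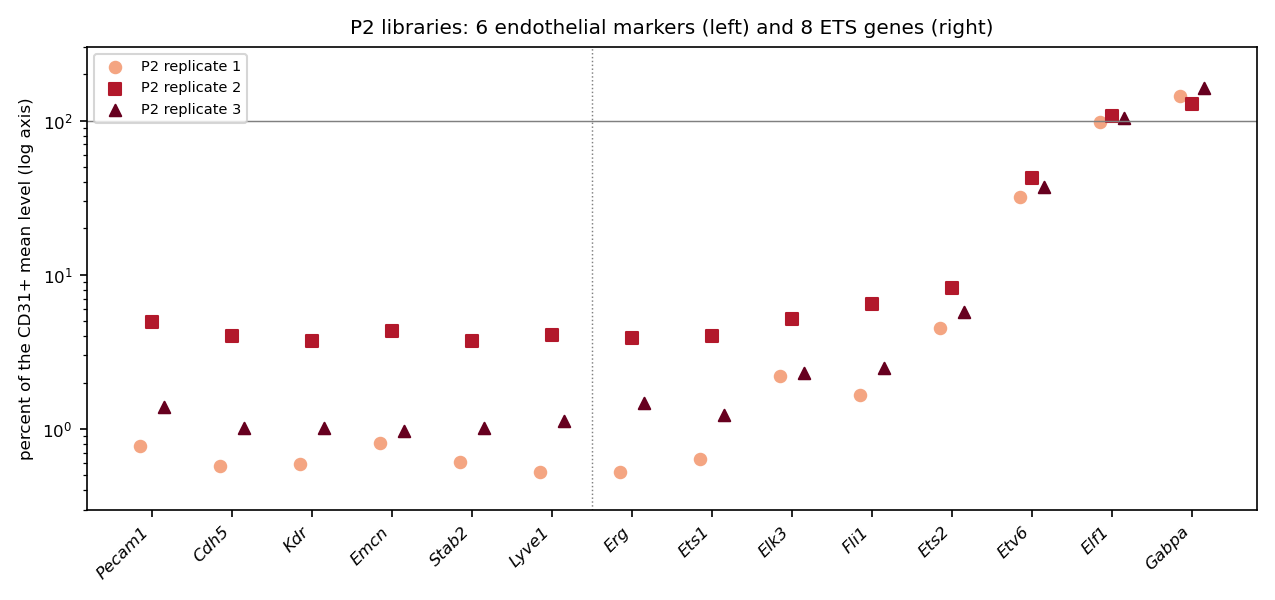
Level in each P2 library as a percent of the CD31+ mean (log axis) for the 6 endothelial markers and the 8 tested ETS members; the grey line marks 100% and symbols mark the 3 replicates. Erg and Ets1 follow the markers from replicate to replicate (0.526%, 3.91% and 1.48% for Erg), while Etv6, Elf1 and Gabpa lie far above them in all 3 libraries.

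Lists of genes tied to ETS factors were compared between the same populations. In P2 cells 34.3% of all genes tested were higher and 39.4% lower than in CD31+ cells. These shares were 33.8% and 36.1% against CD54+CD31- cells. Of the 19 tested vascular genes, 19 were below the CD31+ level in P2 cells (median -5.57, or -6.82 without P2 replicate 2), led by Kdr (-5.83) and the VEGF receptor Flt1 (-5.79). Against CD54+CD31- cells 17 were higher in P2 cells and 1, Hhex, was lower (-2.83), with a median of 2.32 that fell to 0.99 without P2 replicate 2, where 15 were higher. Without CD54+CD31- replicate 1 or 3, 12 or 13 were higher (median 2.09 and 2.45). The adhesion molecule Icam2 (3.25), which is also made by blood cells, had the largest rise. Of the 7 megakaryocyte genes, 7 were below the CD31+ level as well (median -2.70). Against CD54+CD31- cells Gp1ba was higher (0.82), a call lost with the authors' factors, 6 were not called and 0 were lower. That 0 was also 0 at an unadjusted p below 0.05 in edgeR and with DESeq2. Without P2 replicate 2, Ppbp was lower (-1.21).

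Transcription factors of blood that act beside ETS proteins had a different distribution. Of 8 listed, 7 were tested, and 7 were higher in P2 than in CD54+CD31- cells (median 2.60): Myb (4.49), Gata2 (2.92, and 3.56 without CD54+CD31- replicate 2), Gata1 (2.77) and Tal1 (2.60) changed most. Against CD31+ cells 6 were higher and 1, Gata2, was lower (-2.53). Among all genes tested, 33.8% were higher than in CD54+CD31- cells, and 34.3% were higher and 39.4% lower than in CD31+ cells. Gata1, which is also an erythroid marker, was at 176 ± 7.35 CPM in P2 cells and 26.6 ± 3.11 CPM in CD31+ cells, while Erg and Fli1, with which it acts in megakaryocytes, were at 4.22 ± 3.74 and 12.8 ± 9.34 CPM in P2 cells. Lyl1 is not among the tested genes, since its whole span is shared.

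Genes of the SRF pathway, in which ternary complex factors such as Elk3 act, were mostly lower in P2 cells. SRF, its MRTF cofactors, the kinase ERK1 and 4 immediate early genes were all tested, and of these 8 genes 1 was higher and 7 were lower in P2 than in CD54+CD31- cells (median -1.42). The immediate early gene Egr1 was lowest relative to CD54+CD31- cells (-4.19), followed by the cofactor Mrtfb (-2.06), Mapk3 (-1.80), which encodes ERK1, and Fos (-1.56). Immediate early genes also respond to cell dissociation, and the part of dissociation here was not tested. Srf was higher (0.58), and of all genes tested 33.8% were higher and 36.1% lower than in CD54+CD31- cells. Against CD31+ cells the split was again 1 higher, Srf (0.27), and 7 lower, beside 34.3% and 39.4% of all genes tested. With the authors' factors, however, Srf turned (-0.10) and was not called. The call of Srf was also lost with DESeq2 (0.24), with at least 10 counts in every library (0.13) and without CD31+ replicate 1 (0.17) or P2 replicate 2 (0.28) or 3 (0.25).

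Feedback genes of FGF and ERK signaling, which are induced alongside the PEA3 subgroup of ETS factors (Etv1, Etv4 and Etv5), were all lower in P2 than in CD54+CD31- cells, 5 of 5 (median -2.13), with the phosphatase Dusp6 (-3.84) and the inhibitor Spry2 among the lowest. The share of all genes tested that were lower in P2 cells was 36.1% there and 39.4% against CD31+ cells. Against CD31+ cells 4 were lower and Spred1 was not called (-0.29, adjusted p = 0.0526, edgeR), although it was called lower with DESeq2 (-0.32), the authors' factors (-0.66) and the replicate block (-0.28), among other alternatives.

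Of the partners and targets of Gabpa, 6 of 7 were tested. Relative to CD31+ cells 5 were higher in P2 cells and 1, the partner subunit Gabpb1, was lower (-0.36), a call lost without CD31+ replicate 2 (-0.26). The mitochondrial transcription factors Tfb1m (1.60) and Tfam (1.48) and the partner Gabpb2 (1.30) changed most. Relative to CD54+CD31- cells 3 were higher (Gabpb2 1.02, Tfb2m 1.01 and Gabpb1 0.59), and 0 were lower with edgeR, also at an unadjusted p below 0.05, and with DESeq2. Of all genes tested, 33.8% were higher and 36.1% lower in that comparison. With the authors' factors Tfam (-0.27) and Cox5b (-0.48) were called lower.

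The rest of the ETS family was examined for comparison, 16 further genes of which 14 were tested at E14.5. In P2 cells 2 were higher than in CD54+CD31- cells, Elf4 (1.08) and Elf2 (0.93), and 7 were lower, with a median of -0.73. Of all genes tested, 33.8% were higher and 36.1% lower there. Against CD31+ cells 0 of the 14 were higher and 11 were lower (median -1.25), beside 34.3% and 39.4% of all genes tested. The 0 also held at an unadjusted p below 0.05 in edgeR and with DESeq2. CD31+ exceeded CD54+CD31- cells in 7 and fell below them in 2, Erf (-0.55) and Etv5 (-0.55), beside 31.7% and 34.0% of all genes tested. With the replicate block, which pairs these libraries, 8 were higher and 3 lower, since Spi1 (0.55, adjusted p = 0.0204) and Spic (-0.52, adjusted p = 0.0358, edgeR) were called too.

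Etv1 (4.35), Elf4 (2.18) and Etv4 (1.54) were among the 7 genes higher in CD31+ cells, and Elk4 (0.46) had the smallest difference. The call of Elk4 was lost without CD54+CD31- replicate 2 (0.30) or without CD31+ replicate 2 (0.31) or 3 (0.34). Fev, an ERG-subgroup gene known from serotonergic neurons, had 99, 111 and 95 counts in the CD31+ libraries and 0 counts in all 3 CD54+CD31- libraries. It was therefore at least 20.8-fold higher in CD31+ cells, computed against 3 counts per library. In P2 cells Fev had 0, 9 and 1 counts, the 9 being in replicate 2, the library with most endothelial RNA.

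Spi1 and Spic, ETS genes of macrophages and other myeloid cells, were lower in P2 cells than in both other populations. Spi1 was at 1.53 ± 0.433 CPM in P2 cells, 8.23 ± 2.96 CPM in CD54+CD31- cells and 12.02 ± 4.58 CPM in CD31+ cells. Spic was at 0.267 ± 0.104, 5.09 ± 2.20 and 3.48 ± 1.09 CPM. Beside them, 6 macrophage markers summed to between 4.34 and 5.70 CPM in P2, between 84.2 and 156 CPM in CD54+CD31- and between 32.1 and 57.9 CPM in CD31+ libraries, with none at 0. The 5 granulocyte markers summed to between 1.58 and 3.66 CPM in P2, between 5.74 and 109 CPM in CD54+CD31- and between 129 and 564 CPM in CD31+ libraries, with Ly6g at 0 in all of these. Both cell types carry CD45, and the sort took CD45- cells. The part of macrophages and granulocytes in the Spi1 and Spic levels was not tested.

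The final comparison set CD54+CD31- cells at E18.5 against those at E14.5. Of the 8 tested members, 6 were higher at E18.5, 1 was lower and 1 was not called, with 69.4% of 15863 tested genes called, 35.9% higher and 33.5% lower. The median log2 fold change was 1.43 over the members and 0.03 over all genes. This comparison shares its E14.5 libraries with 2 of the comparisons above. It was fitted on 6 libraries alone. When all 12 libraries were fitted together the median of all genes shifted by -0.19, and the levels given here carry that shift.

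Erg rose 6.29-fold (2.65 ± 0.30, adjusted p = 0.000286, edgeR) and Ets1 5.57-fold (2.48 ± 0.20, adjusted p = 7.03e-05). Elk3 rose 3.83-fold (1.94 ± 0.19), Elf1 2.73-fold (1.45 ± 0.14) and Etv6 2.68-fold (1.42 ± 0.12), and Ets2 had the smallest rise, 1.75-fold (0.81 ± 0.14, adjusted p = 0.00188, edgeR). All 3 E18.5 libraries lay above all 3 E14.5 libraries for each of these 6 genes, as for 34.8% of all genes tested, and the 6 calls held in all alternatives tried.

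Fli1 was not called (0.44 ± 0.25, adjusted p = 0.153, edgeR). E18.5 replicate 1 had the lowest of its E18.5 levels, 0.553 of the mean of replicates 2 and 3, and without that library Fli1 was called higher (0.66, adjusted p = 0.00277, edgeR). It was also called with the authors' factors (0.67, adjusted p = 0.0361, edgeR). Gabpa was lower at E18.5 (-0.32 ± 0.08, adjusted p = 0.0114, edgeR), a call lost with the authors' factors (-0.08, adjusted p = 0.417) and with a minimum of 10 counts in every library (-0.17, adjusted p = 0.0927).

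Markers of other cell types moved with these differences. The 6 endothelial markers summed to between 152 and 198 CPM at E18.5 and between 35.6 and 61.4 CPM at E14.5, with none at 0. As a percent of the CD31+ mean, Erg stood at 3.71%, 3.53% and 2.14% in the E18.5 libraries and the endothelial markers had medians of 2.88%, 2.63% and 2.10%. Ets1 was higher than that at 5.79%, 7.21% and 6.47%, and it had between 1.04 and 1.47 counts per Cdh5 count at E18.5, against at most 0.465 in CD31+ cells. The sum of 6 stellate and mesenchymal markers was between 2508 and 2716 CPM at E18.5 and at most 143 CPM at E14.5. The part of these cells in the rise of Erg, Ets1 and Elk3 was not tested.

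The E18.5 libraries also held RNA of lung type. The 9 lung epithelial markers summed to between 8293 and 19016 CPM, against between 11.4 and 16.0 CPM at E14.5, where Nkx2-1, the transcription factor that specifies lung epithelium, was at 0. Sftpc, the surfactant protein gene, was at 12377 CPM in E18.5 replicate 1 and 5249 CPM on average in replicates 2 and 3. Hepatoblast markers were lower in replicate 1, with 4490 CPM in sum against 35105 and 45358 CPM in replicates 2 and 3. In replicates 2 and 3 the hepatoblast sum exceeded the lung epithelial sum (8293 and 8562 CPM), and in replicate 1 it was below it. The labels give embryonic liver as the tissue of these libraries, and lung markers at these levels go against liver as the only tissue.

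ETS genes of epithelia had the largest rises of the family. Elf5, known from mammary gland and distal lung epithelium, had 82.1, 58.8 and 52.5 CPM at E18.5 and 0.340, 0 and 0.123 CPM at E14.5 (8.84, adjusted p = 4.49e-05, edgeR). Ehf, an epithelial relative of Elf3, had 21.3, 14.3 and 14.0 CPM at E18.5 and 0, 0.409 and 0.0491 CPM at E14.5 (7.03, adjusted p = 0.000251, edgeR). Both were highest in replicate 1, as were Sftpc and the sums of bile duct (1184 CPM) and mesothelial (521 CPM) markers. These fold changes rest on few E14.5 counts: without E14.5 replicate 1 that of Elf5 was 10.01 and that of Ehf 6.42, and without E14.5 replicate 2 that of Ehf was 9.35.

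Etv5, an FGF-responsive gene of distal lung buds, was at 252, 199 and 192 CPM at E18.5 and at 23.7, 19.0 and 24.5 CPM at E14.5, a 10.9-fold rise (3.44, adjusted p = 2.12e-05, edgeR). Its relative Etv4 was not called (-0.39, adjusted p = 0.495, edgeR), with 0.643 ± 0.317 CPM at E18.5 and 0.956 ± 0.158 CPM at E14.5. Of the 15 further ETS genes tested, 9 were higher and 2 lower (median 1.31), beside 35.9% and 33.5% of all genes tested. Spdef (3.76), Spib (2.91, and 3.68 without E14.5 replicate 2), Etv1 (2.30), Elf4 (1.63), Etv3 (1.31) and Elk4 (0.78) were the other 6 that rose, and Spdef and Spib remained at or below 1.46 CPM in each library. Erf fell (-1.41), and so did Elk1 (-0.33, adjusted p = 0.0475, edgeR), whose call was lost in 12 of 13 alternatives. Beside the lung markers, 5 bile duct markers summed to between 789 and 1184 CPM at E18.5 and between 10.5 and 17.2 CPM at E14.5, and all 5 were higher (median 6.34). The 4 mesothelial markers summed to between 308 and 521 CPM against between 1.98 and 4.72 CPM, and all 4 were higher (median 6.65). No marker of these lists was at 0 in either group. The part of lung, bile duct and mesothelial cells in these rises was not tested.

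**Figure D5:**
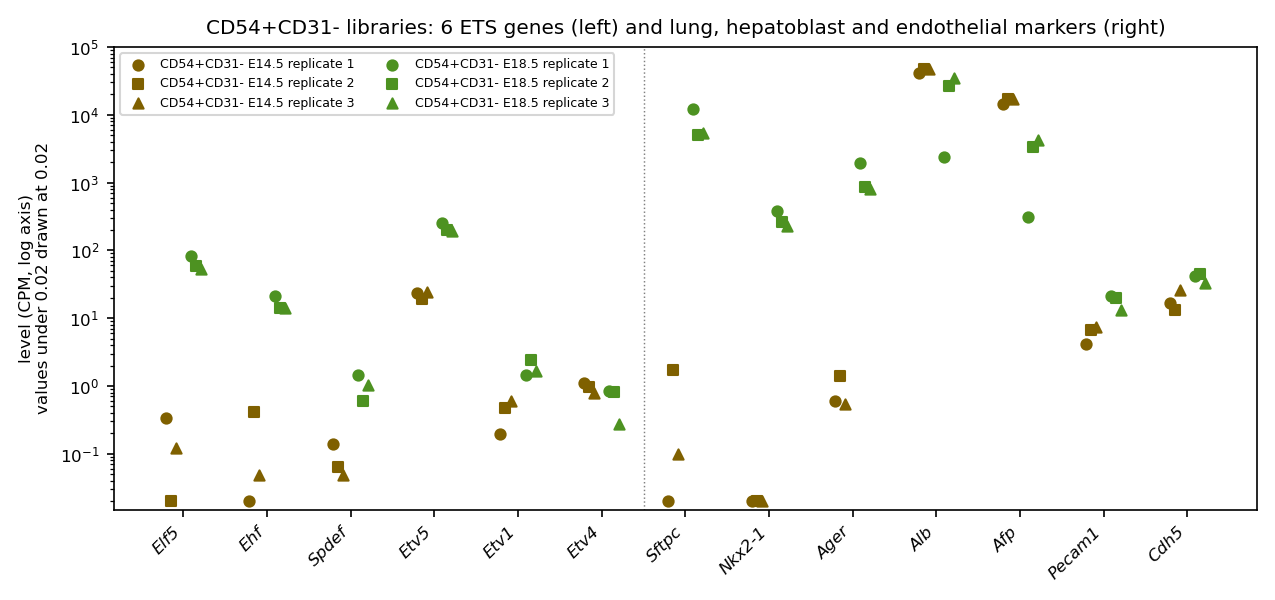
Level (CPM, log axis; values under 0.02 are drawn at 0.02) of 6 ETS genes left of the dotted line and of lung (Sftpc, Nkx2-1 and Ager), hepatoblast (Alb and Afp) and endothelial (Pecam1 and Cdh5) markers right of it, in the E14.5 and E18.5 CD54+CD31- libraries; symbols mark replicates. Elf5, Ehf and Etv5 are higher in all E18.5 libraries beside the lung markers, and replicate 1 at E18.5 has the highest Elf5 (82.1 CPM) and the lowest Alb.

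Lists tied to ETS function also differed between the E18.5 and E14.5 libraries, where age and cell composition cannot be told apart. Of all genes tested, 35.9% were higher at E18.5 and 33.5% lower. Vascular genes were higher in 17 of 19 and lower in 1, Hhex (-2.15), with a median of 2.45, and the adhesion protein Esam (4.53) and Kdr (3.18) rose most. The megakaryocyte list went the other way, with 0 of 7 higher and 2 lower, Pf4 (-1.23) and Gp9 (-1.20), and DESeq2 and an unadjusted p below 0.05 in edgeR gave 0 higher too. Without E18.5 replicate 2 all 7 were lower, and the call of Gp9 was lost without any 1 of the E14.5 libraries (between -1.27 and -1.19) or without E18.5 replicate 3 (-0.89). The SRF pathway was higher in 7 of 8 and lower in 0, a count that was also 0 with DESeq2 and at an unadjusted p below 0.05 in edgeR, and was led by Fos (4.79), Egr1 (2.45) and Junb (2.44), immediate early genes that also respond to cell dissociation. Of the 5 FGF and ERK feedback genes, 4 were higher, among them Spry1 (2.67) and Spry2 (2.26), and Spry4 was lower (-0.49). Of the blood factors 2 were higher, Runx1 (1.93) and Ldb1 (0.35), and 2 lower, Gata1 (-2.35) and Tal1 (-1.90). Of these, Ldb1 lost its call without E14.5 replicate 1 (0.28) or 3 (0.30) and Tal1 without E14.5 replicate 2 (-1.61) or 3 (-1.96). Of the Gabpa partners and targets 1 was higher and 3 lower, with Tfam (-1.85) and Cox5b (-1.68) lowest.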

How the data were processed

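RNA of sorted mouse cells was sequenced in 12 libraries, 3 for each of 4 groups taken from the sample labels. The label of the E18.5 libraries is embryonic liver, and their lung markers go against liver as the only tissue, beside hepatoblast markers in all 3. Ribosomal sequences were removed enzymatically and libraries were made with a strand-marking kit. According to the methods and the submitters' processing notes, the authors trimmed reads with cutadapt 1.11, aligned them to GRCm38 with STAR 2.5.0a and counted them on genes with featureCounts 1.4.6-p3. The feature type, strand and multiple-overlap settings are not given in the sources used here. The authors deposited raw counts and, beside them, a score, namely the count multiplied by 1 factor for each library and rounded. Here counts were tested and the score served only to recover those factors.

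Tests used edgeR 4.0.16 in R 4.3.3 (TMM, filterByExpr, quasi-likelihood test, Benjamini-Hochberg adjustment over all tested genes, threshold 0.05). One fit held the 9 E14.5 libraries and another the 6 CD54+CD31- libraries, with group as the only factor. The median of a comparison is the median log2 fold change of its tested genes, and a called gene has an adjusted p below 0.05. GENCODE vM21 held 37932 of the 38127 identifiers. 3 genes (Cdk8, Zc3h7a and mt-Rnr2) held between 13.0% and 24.4% of a library's counts. Replicate pairs differed beyond sampling noise, where the lowest ratio of chi-square to its degrees of freedom was 42.0. At these depths the 3 libraries a group, not counting error, limit the precision for genes with many counts. Counting error adds to this for genes with few counts, such as Elf5 and Ehf at E14.5 or Fev in P2 cells.

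Same-numbered CD31+ and CD54+CD31- libraries deviated together (correlations of 0.334, 0.260 and 0.122 across genes), and the study names independent litters, so their numbers were taken to pair them. The values given for that comparison come from the fit without this pairing. The fit with the replicate number as a block changed no member's call in it. It added calls of Spi1 and Spic among the other ETS genes. Alternatives were DESeq2 1.42.0, its size factors or the authors' factors in edgeR, other low count filters, the block, other sets of libraries, and leaving out each library. The tests were also tried on simulated data. The members and gene lists were chosen with earlier results of these data known. From each list counts are given with up to 4 genes named, those with the largest absolute change past the threshold. Other ETS genes could all be named. Some genes first placed on the megakaryocyte and SRF lists are not reported here, for a reason unrelated to their values, so counts for both cover the remaining genes only. Genes outside this rule that stand as exceptions to a list's direction were named after their values were seen. Mrtfa and Mrtfb appear under older names in the counts. Promoter windows came from RefSeq sequence of GRCm38.p6.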

Additional observations from a re-analysis of the deposited data

How the results depend on the processing

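Of 512 log2 fold changes of members recomputed under the alternatives, 497 kept their side of the threshold, and their direction where a call was made. A change of sign with neither value past the threshold was counted as kept. Ets1 in P2 against CD54+CD31- cells, for example, ranged from -0.51 to 0.95 without being called. Leaving out 1 library at a time, the number of members lower in P2 than in CD54+CD31- cells ranged from 1 to 2 and the number lower in CD31+ than in CD54+CD31- cells from 0 to 1. With the authors' factors 0 members were higher in P2 than in CD31+ cells and 0 were lower at E18.5, and with at least 10 counts in every library 0 were lower at E18.5. Those factors shifted the median of all genes by -0.26 and -0.37 in the P2 comparisons with CD54+CD31- and CD31+ cells, by 0.11 between the latter and by 0.23 at E18.5, and the share of calls that are higher in P2 cells against CD54+CD31- cells went from 48.3% to 38.2%. They reversed Elf1 (-0.34), Elf2 (-0.37) and Srf (-0.10) in P2 against CD31+ cells. In P2 against CD54+CD31- cells, the values with 1 library left out ranged from -0.76 to 0.33 for Fli1 and from -0.98 to 0.47 for the receptor gene Ednrb, both reversed without P2 replicate 2. The causes were not tested. Correlations of same-numbered libraries were 0.067, -0.020 and 0.084 for P2 with CD54+CD31- cells and 0.069, 0.017 and 0.046 for E18.5 with E14.5. For P2 with CD31+ cells they were uneven, 0.015, 0.077 and 0.336. With the replicate block 10910, 11460 and 10329 genes were called in the P2 comparisons with CD54+CD31- and CD31+ cells and at E18.5, against 10815, 11395 and 11014. In the comparison of CD31+ with CD54+CD31- cells the block gave 10326 calls, against 10150 without it. The spread over 3 libraries a group limits these comparisons, and genes with shared spans may be undercounted.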
